A study of Mus musculus with 24 samples.

Results

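The comparison described here set the 4 libraries labelled Haplotype-I adults (abbreviated Hap-I in the design text) against the 4 labelled C57 adult, 8 of the 24 libraries of the series. It was read as brain-like RNA against kidney RNA and not as an effect of the transgene. The libraries were taken by group label, from groups that earlier results of these data had shown to hold neuronal and glial or nephron RNA, and the genes by a filter of 1 TPM or more in at least 4 of these 8 libraries, which kept 14249 of 30153 genes. TPM is a transcript abundance divided by transcript length and scaled so that every library has nearly the same total. All libraries were labelled kidney tissue, strain C57/BL6, and were made from polyadenylated RNA. The label of the Hap-I group gives haplotype I and that of the C57 group gives no haplotype, and neither has western diet in its label. The series title names hypertensive mice that overexpress the human angiotensin receptor type 1 and the effect of a western diet on the kidney transcriptome. The design text gives 4 animals per group. Sex, exact age, litter and sequencing batch are not in the labels, and the labels do not describe how the transgene is driven or from how many founders the line came. The human receptor was not analysed here, since the table holds mouse genes.

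The tissue label went against the RNA in the Hap-I group. Snap25 (chr2:136713453-136782428, GRCm38), a membrane fusion protein of the synapse, was 1792, 2194, 2258 and 1662 TPM in Hap-I libraries 1 to 4 and 0.541, 1.5, 1.04 and 1.38 TPM in C57 libraries 1 to 4. Umod (chr7:119462711-119479282), the uromodulin gene of the thick ascending limb, was 0, 0, 0 and 0.64 TPM in the Hap-I libraries and 1313, 2453, 2484 and 2448 in the C57 libraries. Kap (chr6:133849851-133853762), an androgen-regulated protein of the proximal tubule, was 0.432, 7.3, 0.752 and 6.53 TPM against 47985, 37560.0, 34274 and 25674. All 4 libraries labelled Hap-I adults carried synaptic RNA and almost no nephron RNA, and the 4 C57 libraries carried the reverse. The word kidney is therefore used below only for the label, and each group is called by its name.

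Neurons communicate through vesicles filled with transmitter, which fuse with the membrane when voltage-gated channels let calcium in. Astrocytes clear transmitter and potassium, oligodendrocytes wrap axons in myelin, and microglia are the resident macrophages. The nephron filters plasma in the glomerulus, reclaims most solutes in the proximal tubule, dilutes the filtrate in the loop of Henle and adjusts salt, acid and water in the distal tubule and collecting duct.

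Differences were fitted with limma on log2(TPM + 1), Hap-I minus C57, and a gene was called at a Benjamini-Hochberg adjusted p under 0.05. Fold changes on this scale understate the difference of weakly expressed genes. Of the 14249 genes tested, 10942 were called (76.8%). The calls comprised 7009 genes higher in Hap-I adults (49.2%) and 3933 lower (27.6%), with a median difference over all genes tested of 0.43. Calls of at least 4-fold numbered 3850 (27.0%), of which 2432 were higher (17.1%) and 1418 lower (9.95%). The direction of small differences depended on the scaling. Median-of-ratios rescaling put the median of all genes at 0.01, with 5401 genes higher and 5455 lower, and quantile normalization put it at -0.04, with 5294 higher and 5622 lower. A gene under 1 TPM in all 4 libraries of one group passed the filter through the other group alone, which fixed its side. This held for 1487 genes that passed only through Hap-I adults (10.4%) and 915 only through C57 adults (6.42%). Counts and medians of gene lists below describe the members that passed and support no direction. In bulk RNA, fewer cells of a type and less RNA per cell cannot be told apart.

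Many genes were present in one group and nearly absent from the other. At least 10 TPM was reached in all 4 Hap-I libraries by 7398 genes, and 622 of these stayed under 1 TPM in every C57 library. The reverse held for 343 of the 5697 genes that reached 10 TPM in all 4 C57 libraries. The libraries of the groups did not overlap in 10172 of the tested genes (71.4%). Genes listed at 0 throughout the other group numbered 9 and 22. By contrast, 4379 genes reached 10 TPM in all 8 libraries, and 413 of these were called at 4-fold or more.

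The largest differences toward Hap-I adults were those of neuronal genes with 1 exception. Snap25 led (log2 difference 9.88, SE 0.18), but the groups were read by it, so its rank supports nothing further. Next came Camk2a, the alpha subunit of the calcium-dependent kinase of excitatory synapses, at 1302, 1479.8, 1462 and 1349.6 TPM against 0.71, 0.954, 1.47 and 1.35. Hpca, the calcium sensor hippocalcin, was 1901, 1503, 898 and 1532 TPM against 1.06, 1.11, 1.04 and 1.36, a log2 difference of 9.36. Kif5a, a motor of axonal transport, differed by 8.91. Slc17a7, which loads glutamate into vesicles, was 675, 663, 441 and 499 TPM and was listed at 0 in C57 libraries 1 and 3. The list continued with Eef1a2 (8.85), a translation elongation factor of neurons and muscle, the vesicle calcium sensor Syt1 (8.73), Cplx1 (8.5), which clamps vesicle fusion, the tubulin regulator Stmn3 (8.34) and the secreted neuronal protein Nell2 (8.31). Mobp, a myelin protein of oligodendrocytes, was the exception at 509, 486, 735 and 490.1 TPM against 0.192, 0.346, 0.244 and 0.443.

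The largest differences toward C57 adults were those of tubule genes. Kap led with a log2 difference of -13.29 (SE 0.54), but the groups were read by it too, so its rank supports nothing further. Napsa, an aspartic protease of proximal tubule lysosomes, was 0.318, 1.35, 0.237 and 0.963 TPM in Hap-I adults and 6515, 4228, 3902 and 4826 in C57 adults. Klk1, the kallikrein of the connecting tubule, was 0, 1.19, 0.229 and 1.62 TPM against 4836, 4251, 4419.6 and 4094. Miox, which opens the inositol ring, differed by -11.14, S100g, the calbindin of distal calcium transport, by -11.10, and Umod, also used to read the groups, by -10.86. Gpx3, the plasma glutathione peroxidase, kept 5.14 to 10.4 TPM in Hap-I adults against 11663 to 14746, which made it the only gene of these 11 above 5 TPM in every Hap-I library. Spink1 (-10.79), Keg1 (-10.17), the phosphate transporter Slc34a1 (-10.11) and the hydroxysteroid dehydrogenase Akr1c21 (-9.98) were also in the set. All of these 22 genes were chosen among those in which the libraries of the groups did not overlap.

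**Figure D1:**
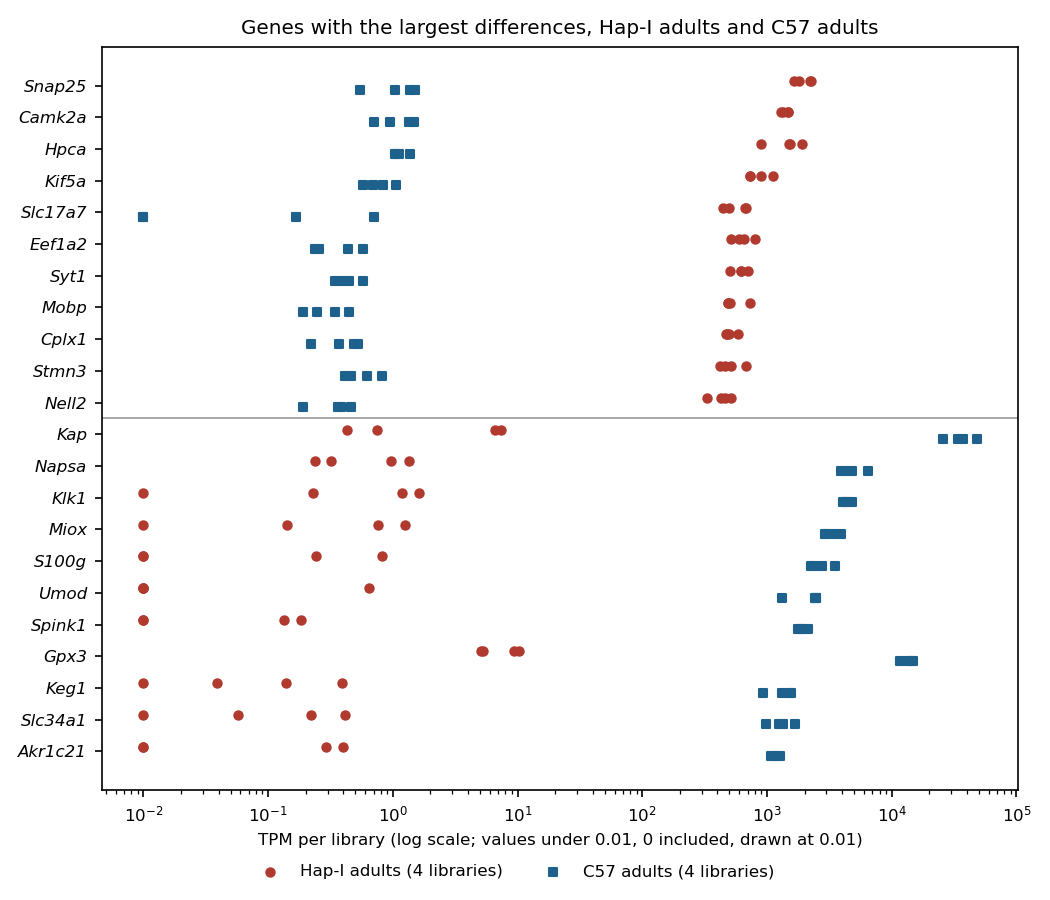
TPM of 11 genes far above and 11 far below C57 adults, on a log axis, with circles for the 4 Hap-I libraries and squares for the 4 C57 libraries. The groups do not overlap in any gene, which was a condition of the choice. Umod of C57 library 1 lies to the left of the other C57 values.

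Short motifs were counted in the promoters of these gene sets, and 3 windows are shown because they hold letters bound by a regulator of neuronal genes. Windows of 300 bases, 250 before to 50 after the start, came from RefSeq on GRCm38.p6 and matched 10811 of the 14249 tested genes. The RE1 consensus, searched on both strands like every motif here and bound by the repressor REST that silences neuronal genes outside neurons, was found in 9 of 2508 windows of genes at least 4-fold higher in Hap-I adults (0.359%), in 0 of 1271 windows of genes at least 4-fold lower, in 11 of 13891 windows of all tested genes (0.0792%) and in 21 of all 32851 windows (0.0639%). Capitals mark the match in the windows below, at the 3 genes with the largest differences among those with a match, each 5′ to 3′ on the strand of the gene.
Gria2 chr3:80802786-80803085 - strand: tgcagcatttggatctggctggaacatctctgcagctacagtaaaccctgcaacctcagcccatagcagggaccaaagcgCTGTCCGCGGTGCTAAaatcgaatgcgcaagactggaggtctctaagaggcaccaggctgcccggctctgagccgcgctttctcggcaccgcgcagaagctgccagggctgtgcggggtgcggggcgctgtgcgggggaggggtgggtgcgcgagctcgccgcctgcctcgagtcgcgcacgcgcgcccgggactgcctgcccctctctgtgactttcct
Fam163b chr2:27142428-27142727 - strand: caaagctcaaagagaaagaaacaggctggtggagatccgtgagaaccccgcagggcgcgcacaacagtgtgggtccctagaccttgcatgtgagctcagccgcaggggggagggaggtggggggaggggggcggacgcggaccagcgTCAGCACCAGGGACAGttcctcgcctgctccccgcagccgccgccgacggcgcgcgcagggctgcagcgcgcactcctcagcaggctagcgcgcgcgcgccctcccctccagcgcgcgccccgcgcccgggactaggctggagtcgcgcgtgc
Ttc9b chr7:27653674-27653973 + strand: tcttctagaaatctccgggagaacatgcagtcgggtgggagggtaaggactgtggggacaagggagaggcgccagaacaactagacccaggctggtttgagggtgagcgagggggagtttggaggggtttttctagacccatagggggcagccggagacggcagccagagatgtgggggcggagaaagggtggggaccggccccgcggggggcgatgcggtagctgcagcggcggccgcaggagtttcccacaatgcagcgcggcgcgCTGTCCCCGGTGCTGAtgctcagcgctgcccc

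The RE1 match begins 170 bases before the start in Gria2, a subunit of AMPA glutamate receptors, 103 before in Fam163b and 18 bases after it in Ttc9b. Gria2 was 122 to 254 TPM in Hap-I adults and 0.149 to 0.281 in C57 adults. The motif CAAAGTCCA of HNF4, a nuclear receptor of liver and tubule epithelium, was in 1.18% of the lower windows, 0.199% of the higher, 0.418% of the windows of tested genes and 0.475% of all windows. In the same order the TATA letters TATAAA were in 11.8%, 7.54%, 7.39% and 13.6%, the CRE letters TGACGTCA in 1.10%, 2.51%, 2.76% and 1.79%, and the E-box letters CAGCTG in 19.8%, 18.8%, 15.9% and 16.3%. None of these shares was tested. An observed over expected CpG ratio of 0.6 or more was reached by 56.1% of windows of genes at least 4-fold higher, by 32.3% of those at least 4-fold lower, by 64.6% of the windows of all tested genes and by 35.8% of all windows. A match is a description of letters, and no binding was measured.

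The levels of the regulators themselves differed between the groups. Hnf4a was 0 to 0.0375 TPM in Hap-I adults and 116 to 206 in C57 adults, a log2 difference of -7.42. Rest, the repressor that binds RE1, was 0.822 to 1.8 TPM in Hap-I adults and 2.55 to 5.65 in C57 adults, a log2 difference of -1.29. Of 23 transcription factors of nephron development and identity, 21 passed the filter, 16 of them through C57 adults alone. Pax8, required for kidney formation, was 0 to 0.0218 TPM in Hap-I adults and 36.4 to 62 in C57 adults. Gata3, of the collecting duct, was 0 to 0.12 TPM in Hap-I adults and 10.7 to 16.4 in C57 adults. Emx2, shared by kidney and cortex, showed the smallest difference of the list, at -0.56, with 15 to 22 TPM in Hap-I adults, and its call was lost when any 1 of 6 libraries was left out (Hap-I library 1, 2 or 3, or C57 library 2, 3 or 4, adjusted p 0.0508 to 0.0892).

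Transcription factors of the brain were measured in the same way. Of 29 in the list, 28 passed the filter, 23 of them through Hap-I adults alone. Neurod6, of cortical projection neurons, was 97.7 to 155 TPM in Hap-I adults and 0.0468 to 0.113 in C57 adults. Tbr1, of deep cortical layers, was 17.4 to 32.8 TPM in Hap-I adults and 0.0122 to 0.0355 in C57 adults, and Dlx1, of inhibitory lineages, 24.4 to 29.9 TPM in Hap-I adults and 0.0174 to 0.124 in C57 adults. Neurod2 differed by 5.30 and Myt1l, a neuronal repressor of other fates, by 5.68. Sox2, of neural progenitors and glia, was 8.12 to 14.7 TPM in Hap-I adults and 0 to 0.0535 in C57 adults. Pou3f3, a factor of both cortex and loop of Henle, was 10.7 to 18.1 TPM in Hap-I adults and 9.7 to 15.4 in C57 adults and was not called (log2 difference 0.07, adjusted p = 0.761), although quantile normalization put it at -0.47 (adjusted p = 0.0309). The activity-regulated factors Egr1 and Fos were 45.2 to 118 TPM in Hap-I adults and 2.24 to 4.77 in C57 adults, and 8.55 to 27.4 TPM in Hap-I adults and 0.754 to 0.858 in C57 adults.

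Hox genes, which pattern the hindbrain and the trunk, were almost silent in Hap-I adults. Their summed level over 39 genes was 0.487 to 0.843 TPM in Hap-I libraries and 314 to 413 TPM in C57 libraries, and 20 of the 39 were listed at 0 in all 4 Hap-I libraries. The 23 that passed the filter did so through C57 adults alone. Hoxd8 was 0, 0.0328, 0.0183 and 0.0607 TPM in Hap-I adults and 62.5, 108, 100.5 and 109 in C57 adults, and Hoxb7 was listed at 0 in Hap-I adults and was 24.9 to 33.3 in C57 adults. The 8 genes from Hoxb9 to Hoxb2 on chromosome 11 formed a run in which every gene was called at least 4-fold lower.

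All lists of synaptic genes stood on the Hap-I side. Every one of 20 vesicle release genes passed the filter and was higher, by a median of 6.34 on the log2 scale. Syp, the vesicle membrane protein synaptophysin, was 881 to 1181 TPM in Hap-I adults and 8.26 to 8.86 in C57 adults. Vamp2, the vesicle fusion protein, kept 36.5 to 53.5 TPM in C57 adults and had the smallest difference of the list, 4.40. Of 17 glutamate genes, 16 passed the filter and 16 were higher, with a median of 5.39. Slc17a6, the vesicular transporter of subcortical neurons, was 4.19 to 10.1 TPM in Hap-I adults, far under Slc17a7 on the same length-scaled measure. Grin2a, an NMDA receptor subunit, was the 1 member under the filter and was listed at 0 in all Hap-I libraries, while its partner Grin1 was 179 to 272 TPM in Hap-I adults and 0.251 to 0.785 in C57 adults. How transcripts were summed to genes is not stated, and whether the 0 of Grin2a means absent RNA was not tested.

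Of 16 genes of GABA transmission and interneurons, 16 passed the filter, 15 were higher and 0 lower, with a median of 5.24. Gad1, which makes GABA, was 193 to 254 TPM in Hap-I adults and 0.198 to 0.71 in C57 adults. Sst, the somatostatin of an interneuron class, was 234 to 439 TPM in Hap-I adults and 0 to 0.495 in C57 adults, and Vip, of another, was 23.1 to 37.8 TPM in Hap-I adults and 0 to 0.0823 in C57 adults. Slc32a1, which loads GABA into vesicles, differed by 4.70. Pvalb, a calcium buffer of fast-spiking interneurons and of the distal convoluted tubule, was 105, 59.8, 103 and 69 TPM in Hap-I adults and 68.8, 66.8, 82.2 and 80.4 in C57 adults and was not called (log2 difference 0.14, adjusted p = 0.528), but was higher without Hap-I libraries 2 and 4 and C57 library 1 (0.44, adjusted p = 0.0248). Gabra2 varied within the Hap-I group from 1.57 to 18.5 TPM.

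Structural and excitability genes were also on the Hap-I side. Of 15 cytoskeletal genes, 15 were higher, with a median of 7.07, and Map2, of dendrites, was 291, 502, 605 and 530.0 TPM in Hap-I libraries 1 to 4. Mapt, the tau gene, had 20.4 to 37.5 TPM in C57 adults and a difference of 2.72. Nefl, the light neurofilament of axons, was 222 to 249 TPM in Hap-I adults and 0.49 to 0.977 in C57 adults. Dcx, of migrating young neurons, was only 1.48 to 3.53 TPM in Hap-I adults, although it was called (1.83). Of 18 voltage-gated channel genes, 16 passed the filter and 16 were higher, with a median of 4.82. The sodium channel Scn1a (4.35), the axonal potassium channel Kcna2 (5.05) and the presynaptic calcium channel Cacna1a (4.77) were among the higher, and Cacna1d was under the filter. Hap-I adults alone had carried through the filter 9 of the vesicle release genes, 10 of the glutamate genes, 11 of the GABA genes, 9 of the cytoskeletal genes and 15 of the channel genes.

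More of the listed forebrain genes than of the hindbrain genes passed the filter and were higher in Hap-I adults. Of 13 cortex and hippocampus genes, 13 passed the filter, 12 were higher and 1 was lower, with a median of 3.98. Nrgn, a calmodulin-binding protein of cortical spines, was 1288, 907, 899 and 900.5 TPM in Hap-I adults, and Fezf2, of deep layer neurons, was 13.6 to 24.2 TPM there and listed at 0 in C57 adults. Emx1, a cortical factor, was lower in Hap-I adults, at 4.32 to 8.25 TPM in Hap-I adults and 13.7 to 22.2 in C57 adults. Of 11 hindbrain and midbrain genes, only the serotonin transporter Slc6a4 passed the filter, and it was lower, at 0.0228 to 0.218 TPM in Hap-I adults and 5.31 to 9.13 in C57 adults. Tph2, of serotonin synthesis, reached 0.713 to 1.28 TPM in Hap-I adults and Slc6a3, the dopamine transporter, 0.0683 to 0.191. Slc6a5, the glycine transporter of spinal cord and brainstem, was listed at or near 0 there. Of 14 thalamic and hypothalamic genes, 7 passed, 5 were higher and 1 lower, and the hypothalamic hormones Oxt, Hcrt and Pomc stayed at or under 0.344 TPM in every Hap-I library, with Avp listed at 0. The 1 lower gene was the kinase Prkcd, at 12.2 to 23.9 TPM in Hap-I adults and 33.2 to 49 in C57 adults. Of 14 cerebellar genes, 8 passed, 5 were higher and 1 lower, and Pcp2, of Purkinje cells, was 0 to 0.719 TPM. Itpr1, the calcium release channel of Purkinje cells, led the list at 3.94, the granule cell gene Cbln1 was 3.78 to 6.19 TPM and Gabra6, of granule cells, 0 to 0.0842 TPM in Hap-I adults. Of 6 olfactory bulb genes, 2 passed and both were higher, Reln (2.98) and Cdhr1 (2.47).

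Striatal genes were high in a single Hap-I library. Drd2, the dopamine receptor of indirect pathway neurons, was 1.96, 2.2, 2.33 and 50.7 TPM in Hap-I libraries 1 to 4, and the opioid precursor Penk 51.4, 32.2, 36.2 and 549.9. Adora2a, the adenosine receptor of the same neurons, was 1.25, 0.882, 1.11 and 40.6 TPM against 3.05, 2.22, 1.81 and 2.17 in C57 adults and was not called. Ppp1r1b, the signalling inhibitor DARPP-32, was 73.4, 79.2, 74.6 and 671 TPM in Hap-I adults and 89.7, 95.5, 93.8 and 117 in C57 adults and was not called either. Of 9 striatum genes, 7 passed the filter, 5 were higher and 0 lower. In each of the 4 genes with values above, library 4 was the highest of the Hap-I libraries. Without library 4 the log2 difference was 1.59 for Drd2 in place of 2.60 and 3.24 for Penk in place of 4.18, both still called. Adora2a and Ppp1r1b turned to the other side without it, at -0.66 (adjusted p = 0.00492) and -0.37 (adjusted p = 0.0313).

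Choroid plexus genes were high in another Hap-I library. Ttr, the thyroid hormone carrier of the choroid plexus, was 412, 5403, 14.5 and 13.9 TPM in Hap-I libraries 1 to 4 against 44.8, 46.2, 46.1 and 55.5 in C57 adults, and was not called (adjusted p = 0.358). Kcnj13, a potassium channel of that epithelium, was 2.49, 50.8, 0.345 and 1.43 TPM, and Enpp2, a lysophospholipase it secretes, 128, 1052, 113 and 95.2. Several genes of this set also serve the nephron, and library 2 was the highest Hap-I library for the folate receptor Folr1 (5.73, 73.2, 1.74 and 1.92 TPM against 425 to 546 in C57 adults), the water channel Aqp1 (0.76, 13.9, 0.165 and 0.213 against 555 to 726), the tight junction protein Cldn2 (0.914, 16.3, 0.141 and 0.383 against 147 to 285) and Kl (6.69, 47.5, 4.1 and 5.23 against 81.1 to 186). Of 12 choroid plexus and ependyma genes, 9 passed the filter, 2 were higher and 4 lower. The 2 higher were Foxj1 and Tmem212 of ciliated ependyma. Without Hap-I library 2 Kcnj13 was lower in Hap-I adults, at -0.71 (adjusted p = 0.0488) in place of 0.42, Ttr was at -0.098 in place of 1.62 and Enpp2 at -0.19 in place of 0.62, neither of them called with or without it, and the differences of Folr1, Aqp1 and Kl moved to -7.01, -8.85 and -4.58 from -5.94, -7.99 and -3.84.

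**Figure D2:**
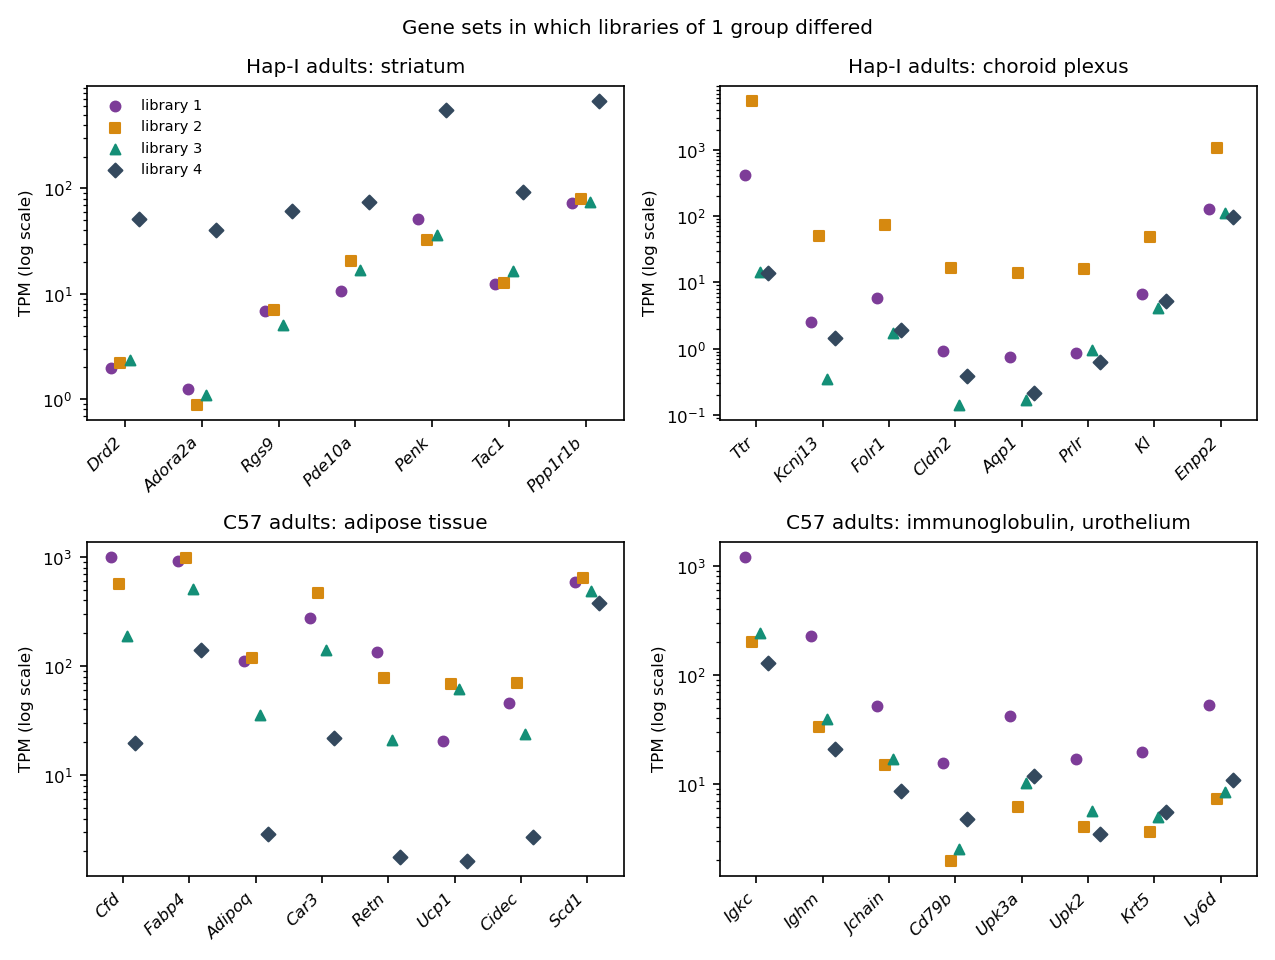
TPM on log axes of 7 striatal and 8 choroid plexus genes in the 4 Hap-I libraries, and of 8 adipose genes and 8 immunoglobulin or urothelium genes in the 4 C57 libraries, each marker shape being 1 library. Library 4 leads the striatal genes, library 2 the choroid plexus genes, C57 library 4 is lowest for the adipose genes and C57 library 1 is highest for the last set.

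Neuromodulator genes split. Of 21 in the list, 14 passed the filter, 9 were higher and 3 lower. The muscarinic receptor Chrm1 was 62.5 to 85.3 TPM in Hap-I adults and 0.156 to 0.343 in C57 adults, and the serotonin receptor Htr2c 8.77 to 31.3 TPM in Hap-I adults and 0.0104 to 0.0782 in C57 adults. The 3 lower included Slc6a4 and Ddc, the decarboxylase of dopamine and serotonin synthesis, which the proximal tubule also expresses (5.75 to 7.75 TPM in Hap-I adults and 75.4 to 115 in C57 adults). Th, which makes the precursor of dopamine, stayed at 0.844 to 1.85 TPM in Hap-I adults. Chat, which makes acetylcholine, was 0.0217 to 2.76 TPM, and the dopamine receptor Drd1 0.000438 to 16, both under the filter.

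Glial genes were on the Hap-I side with named exceptions. Of 14 astrocyte genes, 14 passed the filter, 12 were higher and 1 lower, with a median of 4.87. Gfap, the intermediate filament of astrocytes, was 233, 204, 117 and 162 TPM against 0.2, 0.136, 0.543 and 0.451, and the glutamate transporter Slc1a2 355, 551, 716 and 544 against 0.75, 2.93, 1.57 and 2.62. Glul, glutamine synthetase, kept 316 to 587 TPM in C57 adults and differed by 1.53. Aldh1l1, a folate enzyme often used to mark astrocytes, was lower in Hap-I adults (33.9 to 48.2 TPM in Hap-I adults and 172 to 231 in C57 adults, log2 difference -2.22). The water channel Aqp4 was 5.15 to 24 TPM in Hap-I adults and 8.01 to 18.2 in C57 adults and was not called (0.35), although it was higher without Hap-I library 1 (0.84, adjusted p = 0.0196). Of 15 oligodendrocyte genes, 15 were higher, with a median of 4.37, and 8 of them passed the filter through Hap-I adults alone. Mbp was 2026, 1489.6, 1698 and 1286 TPM in Hap-I adults and 7.06, 7.57, 7.65 and 10.3 in C57 adults. The precursor markers Pdgfra (0.72) and Cspg4 (0.74) had the smallest differences of the list, and Pdgfra kept 7.69 to 13.4 TPM in C57 adults. After quantile normalization 13 of the 15 were still called, Pdgfra (0.18, adjusted p = 0.371) and Cspg4 (0.30, adjusted p = 0.119) being the others.

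The macrophage list held genes on both sides, and which cells carried them was not tested. Of 19 genes, 17 passed the filter, 11 were higher in Hap-I adults and 5 lower. The homeostatic microglial genes P2ry12, a purine receptor, and Siglech, a lectin, were 15.6 to 31.5 TPM in Hap-I adults and 0.000233 to 0.153 in C57 adults, and 18.6 to 23.4 TPM in Hap-I adults and 0.199 to 0.368 in C57 adults. Tmem119, another microglial gene, differed by 1.16. The complement gene C1qa, made by macrophages of both organs, was 48.6 to 91.3 TPM in Hap-I adults and 22.9 to 45.2 in C57 adults (not called after median-of-ratios rescaling, 0.70, adjusted p = 0.0675), and the shared receptor Csf1r 48.1 to 58.3 TPM in Hap-I adults and 23.5 to 30.9 in C57 adults. The lower members included 3 antigen presentation genes and Sall1 (-1.08), a factor of microglia and of the nephron. Of the antigen presentation genes, Cd74 was 1.47, 4.27, 1.56 and 4.38 TPM in Hap-I adults and 492, 306, 294 and 240.1 in C57 adults, H2-Aa 0.657 to 2.66 TPM in Hap-I adults and 117 to 251 in C57 adults, and H2-Ab1 0.185 to 2.19 TPM in Hap-I adults and 49.4 to 105 in C57 adults. Mrc1, of perivascular macrophages, was 0.737 to 1.44 TPM in Hap-I adults and 0.635 to 1.53 in C57 adults and was not called. Quantile normalization called Mrc1 lower (-0.50, adjusted p = 0.0113), and the split was then 9 higher and 6 lower.

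Vessel genes were measured in both groups and differed by type. Of 13 genes of endothelium shared by both organs, 13 passed the filter, 2 were higher in Hap-I adults and 9 lower, with a median of -1.12. Under median-of-ratios rescaling the split was 0 higher and 11 lower. Pecam1 was 11.9 to 17.6 TPM in Hap-I adults and 36.9 to 49.3 in C57 adults, and Emcn, endomucin, 7.28 to 8.28 TPM in Hap-I adults and 104 to 131 in C57 adults. The 2 higher were Flt1, a receptor that binds vascular growth factors (0.59), and the clotting factor carrier Vwf (0.68). Neither call held after median-of-ratios rescaling (adjusted p 0.489 and 0.113), and that of Flt1 was also lost without C57 library 1 (adjusted p = 0.0504) and without Hap-I library 3 (0.0818) or 4 (0.0706). Of 10 blood-brain barrier genes, 7 were higher and 1 lower, with a median of 1.29. The thyroid hormone transporter Slco1c1 was 35.1, 57.3, 53.1 and 47.3 TPM in Hap-I adults and 0.0341, 0, 0.0605 and 0.111 in C57 adults, and the tight junction protein Cldn5 was 18.7 to 41.9 TPM in Hap-I adults and 9.17 to 17 in C57 adults, a call that was lost after median-of-ratios rescaling (0.62, adjusted p = 0.109) and quantile normalization (0.54, adjusted p = 0.147). Abcg2, an efflux pump of both barrier and proximal tubule, was the 1 lower member (18.2 to 24.5 TPM in Hap-I adults and 169.8 to 238 in C57 adults), and Bsg, the partner of lactate transporters, was 461 to 587 TPM in Hap-I adults and 456 to 586 in C57 adults and was not called, although quantile normalization put it higher (0.30, adjusted p = 0.0150). Plvap, of fenestrated endothelium, was 3.5 to 6.07 TPM in Hap-I adults and 88.5 to 132 in C57 adults. It was 1 of 3 lower among the 5 tested of 6 glomerular and fenestrated endothelium genes, of which Ehd3 was the 1 higher (78.3 to 109 TPM in Hap-I adults and 11.2 to 24.1 in C57 adults). Slc2a1, the glucose transporter of the barrier, was 59.2 to 82.2 TPM in Hap-I adults and 29.5 to 43 in C57 adults. Of 16 mural and fibroblast genes, 15 passed, 3 were higher and 8 lower. Vtn, made by brain pericytes, was 61.5 to 88.8 TPM in Hap-I adults and 0.676 to 1.08 in C57 adults, Rgs5, of pericytes, differed by 0.96, while smooth muscle Acta2 was 6.62 to 15.2 TPM in Hap-I adults and 25.1 to 49.4 in C57 adults and collagen Col3a1 0.317 to 1.63 TPM in Hap-I adults and 15.3 to 39.2 in C57 adults.

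**Figure D3:**
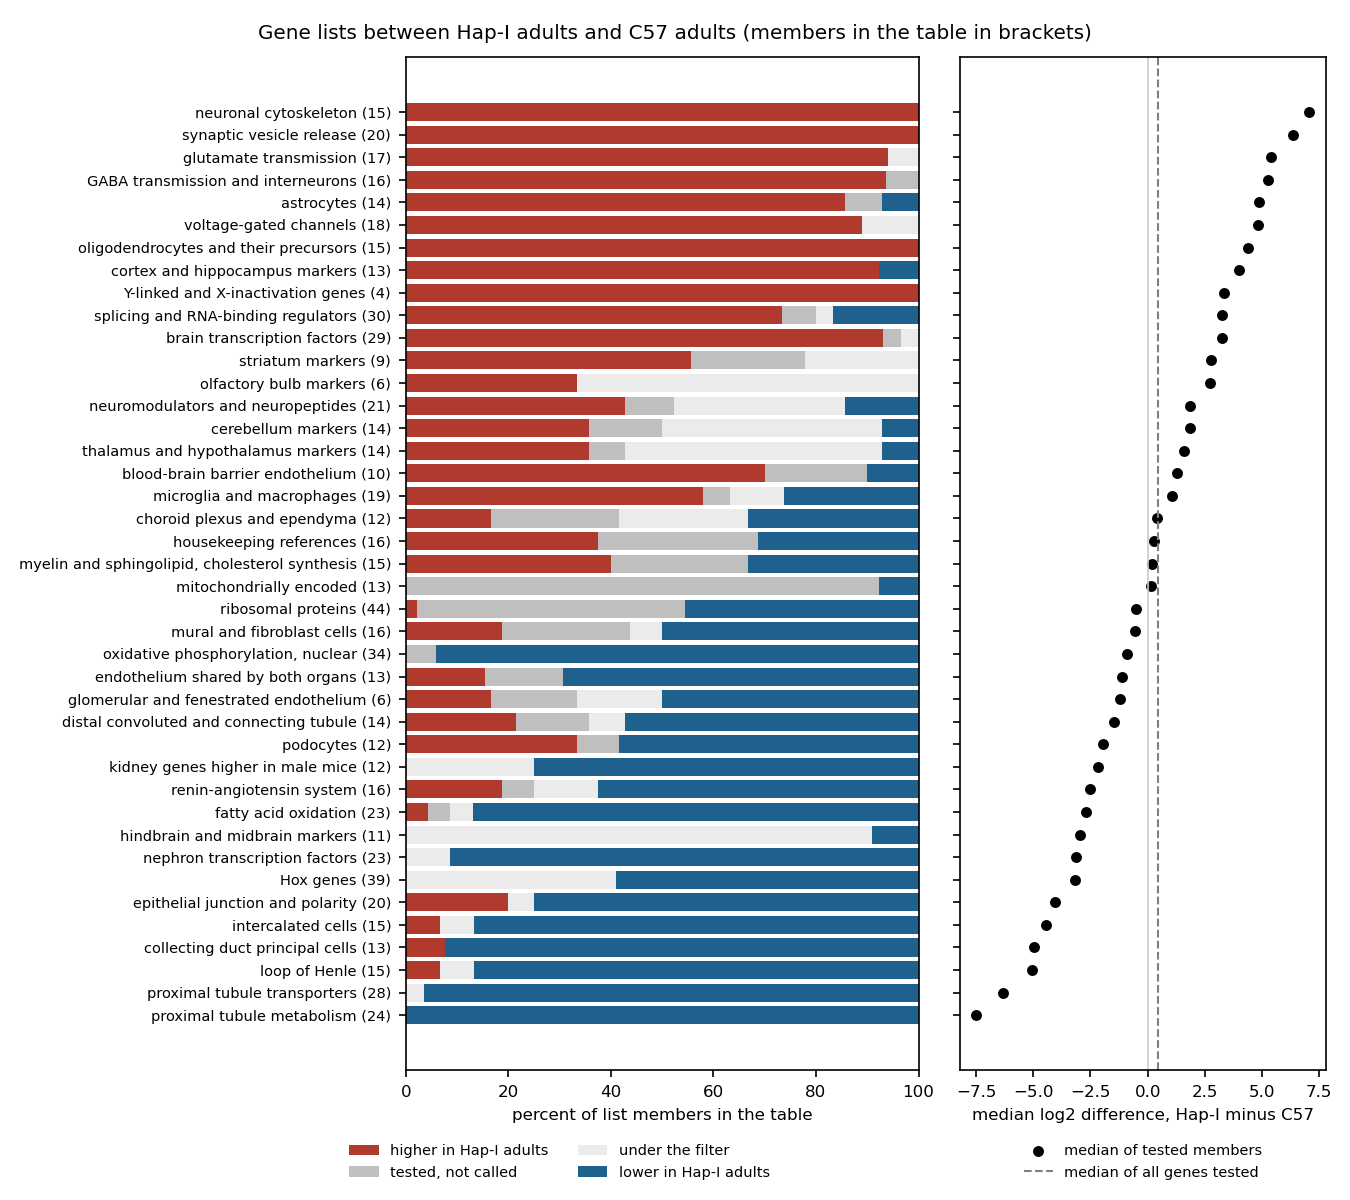
For each list, the left panel gives the percent of its members in the table that were higher, lower, not called or under the filter, and the right panel the median log2 difference of the tested members, with the median of all genes tested (0.43) as a dashed line. The members under 1 TPM in 1 group have their side fixed by the filter. Neuronal lists lie at the top with medians up to 7.07 and proximal tubule lists at the bottom with medians down to -7.48.

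Proximal tubule genes were nearly absent from Hap-I adults. Of 28 transporters, 27 passed the filter (16 through C57 adults alone) and 27 were lower, with a median of -6.34. Lrp2, the megalin receptor of protein uptake, was 0.147, 0.519, 0.179 and 0.421 TPM in Hap-I adults and 159.8, 304, 265 and 246 in C57 adults. Its partner Cubn differed by -6.11, and the organic anion transporter Slc22a6 by -5.22. Slc5a2, the sodium-glucose transporter of the early tubule, was 0 to 0.185 TPM in Hap-I adults and 176 to 248 in C57 adults. Slc22a8, an organic anion transporter also of the choroid plexus and brain vessels, kept 6.01 to 9.43 TPM in Hap-I adults. Slc4a4, the sodium bicarbonate transporter of tubule and astrocytes, had 29.4 to 69.9 TPM in Hap-I adults and 49.5 to 174 in C57 adults and a difference of -1.21, and the amino acid transporter Slc7a8 the smallest one of -0.84, a call lost with all 24 libraries in the fit (adjusted p = 0.223). Slc9a3, the main sodium-proton exchanger of the segment, was listed at or near 0 in all 8 libraries and was under the filter. Whether these values mean absent RNA was not tested, as for Grin2a.

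The metabolic genes of the segment gave the lowest median of all lists. Of 24, 24 passed the filter (18 through C57 adults alone) and 24 were lower, with a median of -7.48. Pck1, the entry enzyme of gluconeogenesis, was 0.0937 to 0.45 TPM in Hap-I adults and 523 to 1360.1 in C57 adults, Fbp1 0.356 to 0.844 TPM in Hap-I adults and 847 to 950.1 in C57 adults and Ass1, of arginine synthesis, 32.6 to 49.9 TPM in Hap-I adults and 1482 to 2292 in C57 adults. Gatm, the first enzyme of creatine synthesis, was 32.4 to 51.1 TPM in Hap-I adults and 139 to 266 in C57 adults, and Cyp27b1, which activates vitamin D, 0.184 to 0.735 TPM in Hap-I adults and 1.51 to 3.8 in C57 adults. These last 2 had the smallest differences of the list, -2.29 and -1.21.

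Later segments followed, with exceptions that neurons share. C57 adults alone carried through the filter 10 of the loop genes below, 9 of the principal cell genes and 10 of the intercalated cell genes. Of 15 loop of Henle genes, 14 passed the filter, 13 were lower and 1 higher, with a median of -5.07. Slc12a1, the target of loop diuretics, was 0.0261, 0.152, 0.0303 and 0.234 TPM in Hap-I adults and 199.5, 503, 472 and 559 in C57 adults. Enox1, a cell surface oxidase, was the 1 higher member (6.37 to 11.9 TPM in Hap-I adults and 0.3 to 0.876 in C57 adults). Of 14 distal convoluted and connecting tubule genes, 13 passed, 8 were lower and 3 higher. Slc12a3, the target of thiazides, was 0 to 0.123 TPM in Hap-I adults and 166 to 357 in C57 adults, and Trpv5 was listed at 0 in Hap-I adults. The 3 higher were Fgf13, which binds sodium channels (141 to 188 TPM in Hap-I adults and 0.355 to 0.848 in C57 adults), the calcium pump Atp2b4 (2.45) and the ubiquitin ligase adaptor Klhl3 (0.72). The call of Klhl3 was lost under both other scalings and without Hap-I library 2, 3 or 4, with 0.18 (adjusted p = 0.446) after quantile normalization. Calb1, a calcium buffer of both the distal tubule and neurons, was 42, 57.4, 46.4 and 59.1 TPM in Hap-I adults and 94.7, 178, 153 and 168 in C57 adults.

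Collecting duct genes were on the C57 side. Of 13 principal cell genes, 13 passed the filter, 12 were lower and 1 higher, with a median of -4.96. Aqp2, the vasopressin-regulated water channel, was 0 to 0.125 TPM in Hap-I adults and 117 to 436 in C57 adults. Hsd11b2, which protects the mineralocorticoid receptor from glucocorticoids, was 0 to 0.0624 TPM in Hap-I adults and 139 to 185 in C57 adults. The sodium channel subunit Scnn1b was 0.0195 to 0.0678 TPM in Hap-I adults and 25.9 to 38.1 in C57 adults. The receptor itself, Nr3c2, was the 1 higher member, at 36.9, 65.6, 33.7 and 36 TPM in Hap-I adults and 3.05, 6.12, 5.88 and 7.06 in C57 adults. Of 15 intercalated cell genes, 14 passed, 13 were lower and 1 higher, with a median of -4.46. Foxi1, the factor of that cell type, was 0 to 0.0716 TPM in Hap-I adults and 11.7 to 33 in C57 adults, and the ammonia channel Rhcg 0.0939 to 0.601 TPM in Hap-I adults and 85 to 117 in C57 adults. The anion exchangers Slc4a1 and Slc26a4 differed by -5.01 and -2.01, and the proton pump subunit Atp6v1b1 by -5.92. Car2, a carbonic anhydrase also of oligodendrocytes, was 166 to 188 TPM in Hap-I adults and 259 to 317 in C57 adults, and Slc4a8, a bicarbonate transporter also of presynaptic terminals, was the higher member (15.7 to 27.5 TPM in Hap-I adults and 4.48 to 8.35 in C57 adults).

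Podocyte genes split. Of 12, 12 passed the filter, 7 were lower and 4 higher, with a median of -1.95. Tcf21, a podocyte factor, was 0 to 0.102 TPM in Hap-I adults and 10.9 to 25.5 in C57 adults. Nphs1, nephrin, differed by -2.52, the factor Wt1 by -2.23 and the surface sialomucin Podxl by -1.83. The 4 higher were Synpo, an actin protein of foot processes and dendritic spines (80.6, 70.8, 68.5 and 89.2 TPM against 19.5, 25.1, 28.2 and 22.5), the scaffold Magi2 (15 to 24.2 TPM in Hap-I adults and 0 to 0.341 in C57 adults), the phosphatase Ptpro (2.04) and the phospholipase Plce1 (0.89), whose call was lost without Hap-I libraries 2 and 4 and C57 library 1 (0.45, adjusted p = 0.0994). Of 20 epithelial junction genes, 19 passed, 15 were lower and 4 higher. The kidney cadherin Cdh16 was listed at 0 in every Hap-I library against 45.4 to 68.4 TPM. The 4 higher were the neural adhesion genes Cdh2, Ncam1 and L1cam and the junction scaffold Tjp1 (20.4 to 35.1 TPM in Hap-I adults and 6.88 to 14.8 in C57 adults).

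In 14 of 28 paralog families the most abundant member differed between the groups, and in the other 14 it was the same. Among those with the same leading member, the creatine kinase Ckb was 73.5% of its family in Hap-I adults and 55.7% in C57 adults, and the enolase Eno1 54.5% and 98.5%. Glucose transporters summed to 160 TPM in Hap-I adults and 142 TPM in C57 adults, of which the neuronal Slc2a3 was 54.7% and 0.588% and the basolateral tubule transporter Slc2a2 0.0452% and 38.0%. Eno2, the neuronal enolase, was 45.1% and 0.213% of the enolases. Eno1 shares most of its sequence with the gene Eno1b, so the enolase shares are uncertain.

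Shares differed in further families. The proton pump a subunits comprised 89.6% Atp6v0a1, the neuronal form, in Hap-I adults and 72.7% Atp6v0a4, the intercalated cell form, in C57 adults. Atp6v1g2 was 84.4% of the G subunits in Hap-I adults and 2.11% in C57 adults. Among cation chloride cotransporters, the neuronal exporter Slc12a5 was 62.8% in Hap-I adults and 0.0412% in C57 adults, and Slc12a1 was 0.0686% and 55.1%. Aquaporins summed to 33.0 TPM in Hap-I adults and 1068 TPM in C57 adults, with Aqp4 at 53.2% and 1.26% of these sums although its own level was not called different. Cdh1 was 0.414% of the classical cadherins in Hap-I adults and 51.3% in C57 adults, and Cdh2 80.4% and 1.33%. Mt3, the brain metallothionein, was 53.1% and 0.954%. Among structural families, the neuronal tubulins Tubb3 (7.07) and Tubb4a (7.97) stood against Tubb6 (-0.47), and the synaptic dynamin Dnm1 (6.99) against the ubiquitous Dnm2 (-0.50). The calls of Tubb6 (adjusted p = 0.136) and Dnm2 (adjusted p = 0.0806) were lost with all 24 libraries in the fit. The calcium pumps Atp2b2 and Atp2b3 were higher by 5.86 and 5.81. Carbonic anhydrases divided into Car10 (4.92) and Car11 (5.16) against Car14 (-3.01) and Car15 (-3.80). Pkm (2.06) was the main pyruvate kinase of both groups, with 94.2% in C57 adults, where the liver and kidney form Pklr (-3.83) made up 5.78%. Among fatty acid binding proteins, Fabp5 (2.80) led in Hap-I adults at 55.4%, with 4.13% in C57 adults, and Fabp7 was 13.8% and 2.32%. The leader in C57 adults was the adipose gene Fabp4 at 64.3%, while Fabp1 (-4.47) was 3.39% there. Fabp4 was 922, 984, 506 and 139 TPM in C57 libraries 1 to 4, lowest in library 4 like the adipose genes below. The part of adipose RNA in this family's change of leader was not tested.

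**Figure D4:**
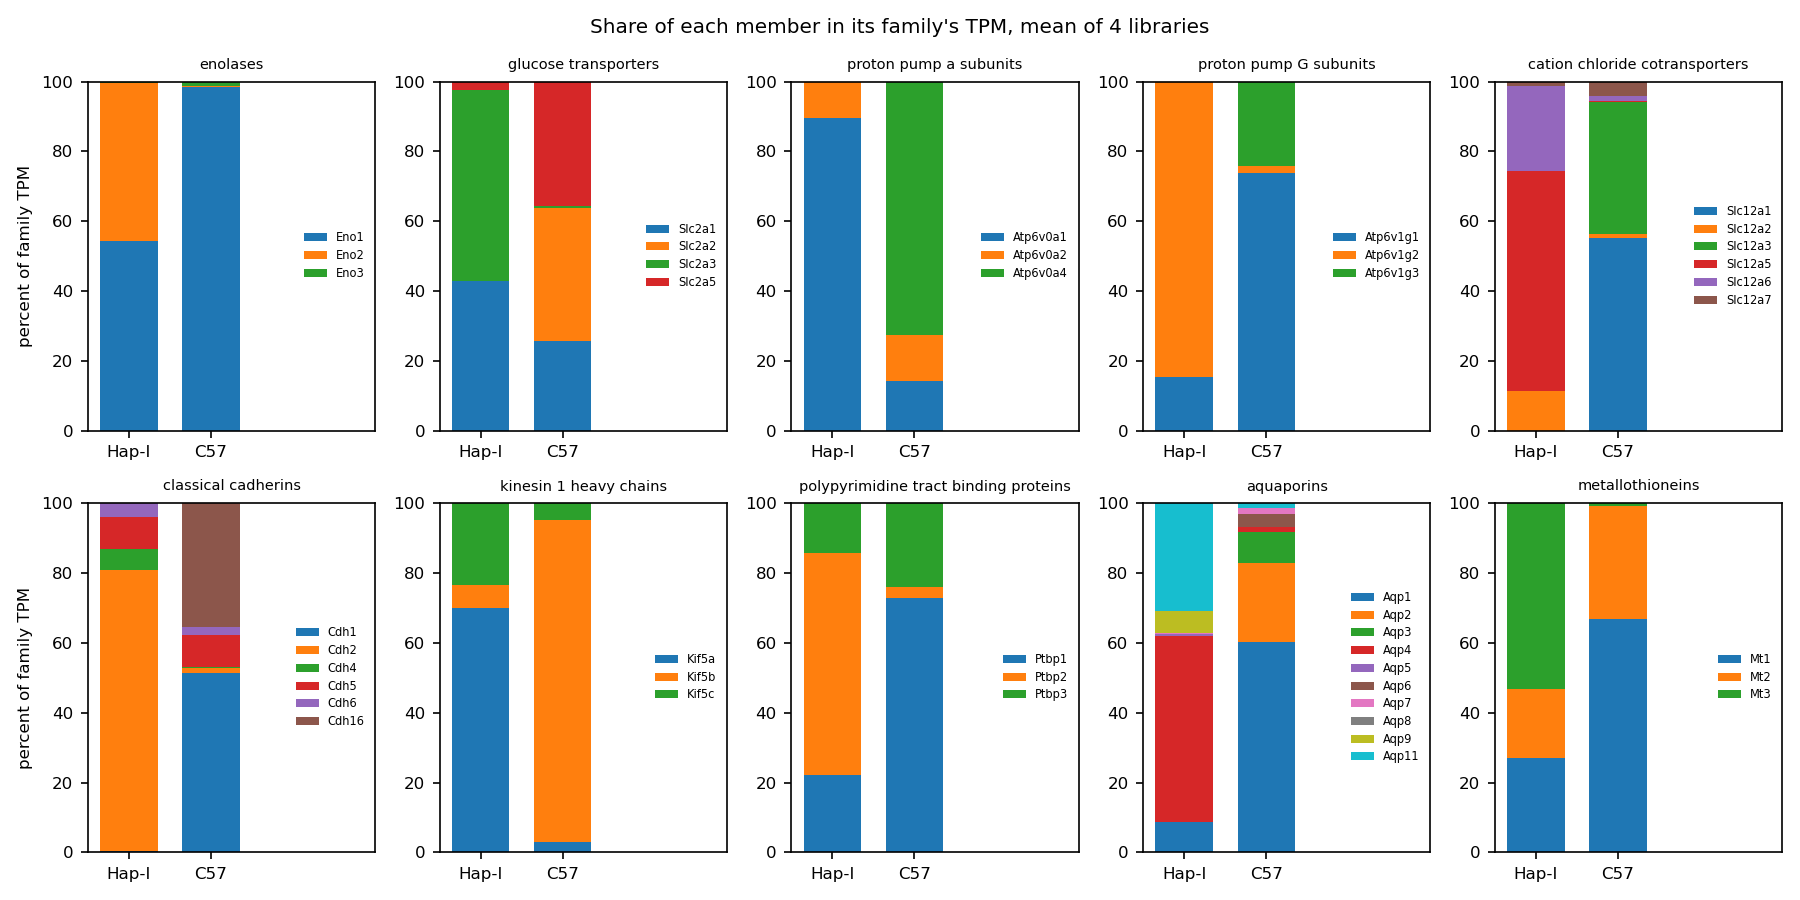
Stacked bars give each member's percent of its family's TPM, as the mean of 4 Hap-I libraries and of 4 C57 libraries, for 10 of the 28 families, chosen after their values were seen, with the scale from 0 to 100. In the proton pump G subunits Atp6v1g2 fills 84.4% of the Hap-I bar and 2.11% of the C57 bar.

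Energy metabolism differed by pathway. Of 34 nuclear genes of oxidative phosphorylation, 34 passed the filter, 32 were lower in Hap-I adults and 0 higher, with a median of -0.89 beside 0.43 for all genes. Atp5b, of the ATP synthase, was 2155, 1429.6, 1328 and 1832 TPM in Hap-I adults and 5047, 3703, 3719 and 3944 in C57 adults, and Ndufa9, of complex I, had the largest difference (-1.66), a call lost with all 24 libraries in the fit (adjusted p = 0.161). Cox8a (-0.02) and the cytochrome gene Cycs (0.23) were not called, and Cox8a took opposite signs after median-of-ratios rescaling (-0.49, adjusted p = 0.0450) and quantile normalization (0.28, adjusted p = 0.0178). The 13 genes encoded by the mitochondrial genome took 18.6% ± 6.52 of TPM in Hap-I adults and 15.2% ± 2.13 in C57 adults (SD, n = 4, two-sided exact permutation p = 0.400, 0.480 adjusted over 6 measures per library, where 4 against 4 libraries allow no p below 0.0286). Of these 13 genes only mt-Nd3 was called (-1.10), while mt-Co1 was at 0.15 and mt-Cytb at -0.34. Median-of-ratios rescaling gave 0 higher and 3 lower of the 13, and quantile normalization 5 higher and 1 lower. mt-Nd3 shares 98.1% of its words of 31 bases with the gene model Gm28438, so its level is uncertain. The shares of the 13 genes leave out 7 pseudogenes or gene models that resemble mitochondrial genes. Those 7 held a further 7.35% to 10.96% of TPM in Hap-I libraries and 11.55% to 12.81% in C57 libraries. Reads may have been divided between the 13 genes and these copies, so the shares of the 13 genes and the difference between them are uncertain. Of 23 fatty acid oxidation genes, 22 passed, 20 were lower and 1 higher, with a median of -2.71. Acadm, the medium-chain dehydrogenase, was 31.7 to 36.5 TPM in Hap-I adults and 676 to 1216 in C57 adults, and the peroxisomal Ehhadh 1.33 to 2.19 TPM in Hap-I adults and 176 to 389.9 in C57 adults. The thiolase Acaa1b had the largest difference of the list (-6.94). Cpt1c, the neuronal carnitine palmitoyltransferase, was the 1 higher member at 37.6 to 68.3 TPM in Hap-I adults and 0 to 0.754 in C57 adults, and the regulator Ppargc1a was 8.4 to 20.5 TPM in Hap-I adults and 5.94 to 22.6 in C57 adults and was not called. Of 15 genes of myelin lipid and cholesterol synthesis, 15 passed, 6 were higher and 5 lower, with a median of 0.21 that became -0.20 after median-of-ratios rescaling. Cyp46a1, which turns over brain cholesterol, was 92.8 to 131 TPM in Hap-I adults and 0.507 to 1.04 in C57 adults, and Apoe, the lipid carrier of astrocytes, 1279 to 2489 TPM in Hap-I adults and 239.9 to 423 in C57 adults. Gal3st1, which makes sulfatide, and Cers2 and Sptlc1, of sphingolipid synthesis, were lower at -1.62, -1.48 and -0.74.

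RNA-binding regulators of splicing differed in sets. Of 30, 29 passed the filter, 22 were higher and 5 lower, with a median of 3.25. Rbfox3, the source of the NeuN antigen, was 85.3 to 112 TPM in Hap-I adults and 0.207 to 0.336 in C57 adults, Elavl4 19.5 to 37.6 TPM in Hap-I adults and 0 to 0.0635 in C57 adults and Srrm4, of neuronal microexons, 8.69 to 12.1 TPM in Hap-I adults and 0.0495 to 0.0973 in C57 adults. Celf4 (6.50) and Rbfox1 (6.05) were also higher. The 5 lower were Rest, the epithelial regulators Esrp1 (0.0262 to 0.0424 TPM in Hap-I adults and 9.64 to 15.4 in C57 adults) and Esrp2 (0.0177 to 0.117 TPM in Hap-I adults and 12.3 to 20.1 in C57 adults), and Ptbp1 and Ptbp3. Rest was counted in this list although it is the repressor that binds RE1 and not an RNA-binding regulator. Ptbp1 was 22.1% of the polypyrimidine tract binding family in Hap-I adults and 72.8% in C57 adults, and Ptbp2, which replaces it in neurons, was 63.7% and 3.19%.

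Several genes often used as references were called to either side. Of 16 housekeeping genes, 16 passed the filter, 6 were higher and 5 lower, beside 76.8% called among all genes tested. Median-of-ratios rescaling gave 4 higher and 7 lower, and quantile normalization 7 and 4, and the median was 0.28, -0.19 and 0.07 under the 3 scalings. Ywhaz (2.57), Hprt (1.25), Actb (1.20) and Gapdh (0.60, a call lost after median-of-ratios rescaling at 0.12, adjusted p = 0.631) were higher, and B2m (-1.73) and Rplp0 (-1.51) were among the lower. Of 44 ribosomal protein genes, 44 passed, 1 was higher and 20 lower, with a median of -0.51, Rpl3 (0.45, and -0.03 after median-of-ratios rescaling) being the higher one and Rps27l (-2.90) the lowest. Median-of-ratios rescaling gave 0 higher and 34 lower of the 44, and quantile normalization 4 higher and 23 lower. The most abundant genes outside the mitochondrial genome in Hap-I adults included Eef1a1 (2567 to 3134 TPM in Hap-I adults and 4475 to 4739 in C57 adults), Fth1 (3597 to 4895 TPM in Hap-I adults and 4778 to 5195 in C57 adults), Hspa8 (2311 to 3314 TPM in Hap-I adults and 943 to 1667 in C57 adults) and the predicted gene Gm20594 (4709 to 7178 TPM in Hap-I adults and 739 to 909.9 in C57 adults). Eef1a1 was lower (-0.63) but not after quantile normalization (-0.03, adjusted p = 0.739), and Fth1 was not called (-0.28) but was lower after median-of-ratios rescaling (-0.76, adjusted p = 0.00929). Ass1, Hspa8, Car15 and Rpl3 share most of their sequence with a pseudogene or gene model, so their levels are uncertain.

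The renin-angiotensin system is the subject of the series. Of its 16 genes in the list, 14 passed the filter, 10 were lower in Hap-I adults and 3 higher, with a median of -2.52. Agtr1a, the main mouse angiotensin receptor, was 0.23, 0.299, 0.4 and 0.553 TPM in Hap-I adults and 20.7, 27.8, 26.8 and 19.6 in C57 adults. Renin, Ren1, was 0.123, 0.33, 0.095 and 0.105 TPM against 72.1, 57.6, 66.2 and 92.3, and angiotensinogen Agt 4.9 to 12.9 TPM in Hap-I adults and 26.3 to 44.6 in C57 adults. The second mouse receptor gene Agtr1b was 0.0456 to 0.0758 TPM in Hap-I adults and 0.0383 to 0.117 in C57 adults, and Agtr2 0.116 to 0.338 and 0.0149 to 0.376, both under the filter. Ace was 6.6, 30.3, 3.67 and 7.44 TPM in Hap-I adults, highest in the library with choroid plexus RNA, and 83.8, 106, 87.8 and 106 in C57 adults. The 3 higher were Mas1, the receptor of angiotensin 1-7 (48.9, 62.6, 36.8 and 50.4 TPM against 0.359, 0.933, 0.546 and 0.586), the prorenin receptor Atp6ap2 (164 to 206 TPM in Hap-I adults and 47 to 76 in C57 adults) and the peptidase Lnpep (1.00), whose call was lost after median-of-ratios rescaling (0.57, adjusted p = 0.137) and without Hap-I library 2 (0.82, adjusted p = 0.0761), Hap-I library 3 (0.88, adjusted p = 0.0775) or C57 library 1 (0.66, adjusted p = 0.0535). These differences stand between brain-like and kidney libraries, and the effect of the transgene and the tissue cannot be told apart.

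Y-linked genes and kidney genes known to be higher in male mice differed to opposite sides. The Y-linked genes Eif2s3y and Ddx3y were 18, 25.4, 6.59 and 19.4 and 9, 22.7, 20.2 and 17.3 TPM in Hap-I adults, and 0.0306, 0.019, 0.0344 and 0.107 and 0.194, 0.0386, 0.0349 and 0.032 in C57 adults. All 4 Hap-I libraries thus carried Y-linked RNA, and no C57 library exceeded 0.194 TPM of either gene. All 4 Y-linked genes in the table passed the filter through Hap-I adults alone, and Xist was not analysed here. Of 12 kidney genes known to be higher in male mice, 9 passed the filter, 6 of them through C57 adults alone. All 9 were lower in Hap-I adults, the side opposite to the Y-linked genes. Sex and tissue cannot be told apart in these kidney genes. Cyp4a12a was 0 to 0.0332 TPM in Hap-I adults and 1.94 to 9.77 in C57 adults. Cyp4a12a has a near-identical copy and its level is uncertain. Acsm3 was 0.781 to 1.12 TPM in Hap-I adults and 3.13 to 15.8 in C57 adults, and Slc7a13, of the straight proximal tubule, 0 to 0.0296 TPM in Hap-I adults and 1.21 to 2.14 in C57 adults, while Slco1a1 and Cyp2j13 were under the filter. With all 24 libraries in the fit the calls of Acsm3 (adjusted p = 0.250), Cyp4a12a (0.0840) and Slc7a13 (0.478) were lost. The part of sex in any other gene's difference was not tested, and sex and group cannot be told apart.

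C57 libraries differed among themselves in tissue that is not nephron. Adipose genes, listed after their values had been seen, were lowest in C57 library 4, with adiponectin Adipoq at 111, 118, 35.4 and 2.87 TPM in C57 libraries 1 to 4, the adipsin gene Cfd at 1000.1, 571, 188 and 19.9 and the thermogenic Ucp1 at 20.7, 68.3, 61.9 and 1.64. In Hap-I adults Adipoq stayed at or under 0.232 TPM. C57 library 1 had the highest immunoglobulin and urothelium levels, with Igkc at 1199.6, 199, 240.3 and 128 TPM and the urothelial plaque gene Upk3a at 41.7, 6.06, 10.1 and 11.8. That library was also the lowest and set apart from the other C57 libraries in 1011 of the 14249 tested genes, against 19 to 21 for the other C57 libraries and 10 to 196 for the Hap-I libraries. The epidermal growth factor gene Egf, of the loop and distal tubule, was 66.5, 534, 418 and 416 TPM in C57 libraries 1 to 4. Long transcripts were low in library 1 of both groups. The median log2 ratio to the other libraries of the group was -0.66 in C57 library 1 and -0.44 in Hap-I library 1 over 1988 genes with a longest transcript of at least 6000 bases, and 0.19 and 0.20 over 1883 genes under 1500 bases. Without Hap-I libraries 2 and 4 and C57 library 1 together, 10172 genes were called, 3768 of them at 4-fold or more, beside 10942 and 3850 with all libraries. Among the gene lists, the ribosomal proteins then had 0 higher and 10 lower genes in place of 1 and 20, and the mitochondrially encoded genes 1 higher and 1 lower in place of 0 and 1.

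Gene length separated the 2 sides. Genes at least 4-fold higher in Hap-I adults spanned a median of 39859 bases of genome, those at least 4-fold lower 18587 and all 13792 tested protein-coding genes 24930. Among 488 genes spanning 300 kb or more, 54.9% were at least 4-fold higher and 3.07% at least 4-fold lower, beside 14.2% and 12.7% of 3296 genes under 10 kb. The longest transcript moved with the difference in the same way, with a median difference of -0.30 for transcripts under 1500 bases and 0.97 for those of 6000 bases or more. As the same length classes differed between libraries of 1 group, the part of RNA quality in this gradient was not tested.

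Some of the genes with large differences were neighbours. Runs of at least 4 consecutive tested genes on 1 chromosome, all 4-fold or more to 1 side, numbered 26 higher and 23 lower, over protein-coding genes, beside 17.1% of all tested genes 4-fold or more higher and 9.95% lower. Whether there were more runs than these shares alone would give was not tested. The higher ones included the X-linked run from Tceal6 to Bex2. The lower ones included the aldo-keto reductases from Akr1c14 to Akr1c21 on chromosome 13, 5 Slc22 transporters on chromosome 19 and the run from Umod to Acsm1 on chromosome 7. Members of these families resemble one another in sequence, so reads may have been divided between them.

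Genes of each group were measured at low levels in the other. Summed over the 52 genes of the vesicle release, glutamate and cytoskeletal lists, C57 libraries held 126 to 208 TPM. This neuronal sum was 46.5 to 145 TPM in the 12 libraries on western diet and 16669 to 18018 in Hap-I adults. The GABA list, not part of it, held 93.8 to 116 TPM in C57 adults. The median of the 52 genes stood at 0.475 to 0.770 TPM in C57 adults and at 0.192 TPM or less in every library on western diet. Summed over the 80 genes of the proximal tubule, loop of Henle and principal cell lists, Hap-I adults held 332 to 416 TPM and C57 adults 57272 to 72081. Left out of this nephron sum were the distal tubule list, at 479 to 654 TPM in Hap-I adults, and the intercalated cell list, at 201 to 228. Slc4a4, of tubule and astrocytes, made up 14.4% of the nephron sum in Hap-I adults and Nr3c2 11.5%, while Vamp2 made up 26.7% and Mapt 17.7% of the neuronal sum in C57 adults. Whether these levels are the tissue's own or come from other RNA was not tested. In Hap-I adults Kap was higher in libraries 2 and 4 than in 1 and 3, and so were Klk1 (0, 1.19, 0.229 and 1.62 TPM), Miox (0, 0.757, 0.141 and 1.25) and Napsa (0.318, 1.35, 0.237 and 0.963).

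A second pair of groups shares no library with this one and differs in the same RNA. Aged Hap-I mice without western diet in their label (brain-like, 4 libraries) were compared with aged Hap-I mice on western diet (nephron RNA, 4 libraries), so age and haplotype were matched and diet was not. Of 14133 genes tested there, 11454 were called (81.0%), 8813 higher (62.4%) and 2641 lower (18.7%), with a median difference of 1.07. Of the genes at least 4-fold higher in Hap-I adults over C57 adults, 2425 were tested there and 2421 were higher, and of those at least 4-fold lower, 1309 were tested and 1246 were lower, with 0 in the opposite direction on either side. Of all genes called lower in Hap-I adults, 3614 were tested there, 2385 were lower (66.0%) and 63 higher, and of all called higher, 6956 were tested, 6788 were higher (97.6%) and 2 lower. Across the 13791 genes tested in both, which are not independent replicates, Pearson's r of the differences was 0.96.

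**Figure D5:**
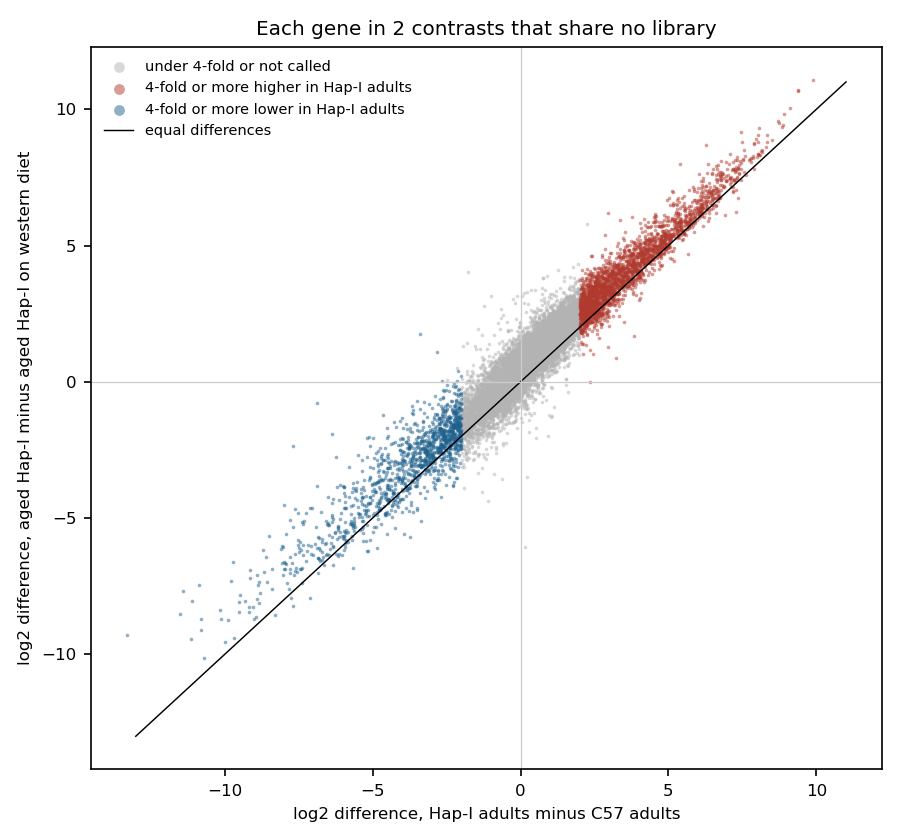
Each point is a gene tested in both contrasts, with the log2 difference of Hap-I adults minus C57 adults on the horizontal axis and of aged Hap-I mice minus aged Hap-I mice on western diet on the vertical axis. Coloured points are genes called at 4-fold or more in the first contrast, none of which was called in the opposite direction in the second, where the median difference was 1.07 against 0.43.

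The difference between the contrasts was tested as an interaction. Of 15023 genes, 3861 were called (25.7%), and the median over all of them was -0.54. The difference was more positive in the adult contrast for 139 called genes (0.925%) and more negative for 3722 (24.8%). After median-of-ratios rescaling 1198 of 14963 were called (8.01%), 571 higher (3.82%) and 627 lower (4.19%). Akr1c18, a progesterone-metabolizing reductase with similar neighbours, gave the largest difference at -6.10, with 395 to 842 TPM in C57 adults and 2.72 to 68.1 TPM in aged Hap-I mice on western diet. Cfd (-5.34) and Car3 (-4.45), both abundant in adipose tissue, the desaturase Scd1 (-3.92) and Kap (-3.996) followed, the last with 7196 to 67583 TPM on western diet and not called after rescaling (-3.20, adjusted p = 0.0975), without Hap-I adult library 3 (adjusted p = 0.0510) or without aged Hap-I library 3 (adjusted p = 0.0508). Mup18 (-4.10), a major urinary protein, has near-identical copies and its level is uncertain. In the other direction stood the neutrophil gene S100a9 (2.49), the early response genes Fos (2.35) and Junb (1.64), the cytochrome oxidase subunit Cox6a2 (1.97), the lysosomal Lamtor5 (1.77) and the myeloid Ms4a6c (1.65). S100a9, Lamtor5 and Ms4a6c were lower in Hap-I adults than in C57 adults (-0.91, -3.35 and -0.81). They were further below in the aged contrast (-3.39, -5.12 and -2.46). Fos, Junb and Cox6a2 were higher in Hap-I adults (3.22, 1.52 and 1.61), with 0.86, -0.12 and -0.36 in the aged contrast. The call of Lamtor5 was lost with a pseudocount of 0.1 (2.19, adjusted p = 0.159). The call of Junb was lost in 9 of the 16 fits that left out 1 library. Leaving out 1 library moved some of these values by over 1.5 times on the linear scale. Akr1c18 became -6.86 or -5.45 without aged Hap-I western diet library 2 or 4, Cfd -6.47, -4.61 or -4.74 without C57 library 4, C57 library 1 or aged Hap-I western diet library 3, and Scd1 -4.73 without aged Hap-I western diet library 2. Without C57 library 4 Car3 was -5.33 and Mup18 -4.76. Leaving out 1 library moved the number of calls between 2035, without C57 library 4, and 7014, without aged Hap-I western diet library 2. The groups of the 2 contrasts differ in diet, age, haplotype and library makeup, and these cannot be told apart for the 12 genes named. Sex is not in the labels of these groups, and its part in these 12 genes was not tested.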

How the data were processed

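RNA was measured in 24 libraries, of which 8 were compared. The authors deposited TPM (length-scaled transcript abundance) for 30153 Ensembl gene identifiers, and 29732 matched GENCODE M21 names. Kallisto, DESeq2 and GRCm38 are listed in the submitters' processing notes, without versions or roles. Read depth is unknown, so no interval from counting was possible. TPM totals of the 8 libraries were 907980 to 925420.

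Genes at 1 TPM or more in at least 4 of 8 libraries were fitted with limma 3.58.1 (R 4.3.3) on log2(TPM + 1), tested on simulated data first. P-values were adjusted by Benjamini-Hochberg over all genes tested and rest on the spread between 4 libraries, stated as 4 animals, per group. Groups came from the labels. Shares per library were compared by two-sided exact permutation tests. Alternatives were another pseudocount, 3 filters, median-of-ratios and quantile scaling, removal of mitochondrial genes, array weights, all 24 libraries, and leaving out libraries. The contrasts' difference was an interaction over 16 libraries.

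Named genes were the 12 largest differences to each side, among genes with no overlap between the groups and 5 TPM or more in the higher group. Preset and extreme members of 41 lists, members of paralog families and the 5 most abundant genes per group were also named. So were the 6 largest differences between contrasts to each side, among genes with no overlap between Hap-I and C57 adults. Other named genes were chosen after their values were seen. Some genes that these rules name are not reported here. Members and lists were chosen with earlier results of these data known. Near-identical copies were searched by shared words of 31 bases.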

Additional observations from a re-analysis of the deposited data

Results flagged for a closer look

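Within each group of 4 libraries, a named gene or list was picked out where the gap from 1 library to its nearest neighbour was a larger share of the group's range than Dixon's critical value for groups of that size. Chance alone picks about 1 in 20 groups. In all, 268 named genes were checked in 2 groups, and 60 outliers were flagged, lists and a library measure included. By the same rule 5.93% of the 14249 tested genes were picked out in Hap-I adults and 11.3% in C57 adults. A single flag below is therefore not read as a result about its gene. The values in brackets are that gap as a share of the range.

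Highest in Hap-I library 1 were Cbln1 (0.859), Cldn5 (0.839), Cox8a (0.955), Gal3st1 (0.966), Nrgn (0.977) and the share of nuclear TPM in the 50 most abundant genes (0.967). Lowest in Hap-I library 1 was Pdgfra (0.952). Highest in Hap-I library 2 were Ace (0.859), Aqp1 (0.957), Car14 (0.858), Cldn2 (0.952), Enpp2 (0.966), Folr1 (0.944), Kcnj13 (0.958), Kl (0.940), Nr3c2 (0.900), Ttr (0.926), the summed choroid plexus and ependyma list (0.934) and the summed collecting duct principal cells list (0.900). Highest in Hap-I library 3 was Mobp (0.908). Lowest in Hap-I library 3 were Col3a1 (0.960), Eef1a1 (0.902) and Sptlc1 (0.962). Highest in Hap-I library 4 were Acadm (0.871), Adora2a (0.991), Drd1 (0.943), Drd2 (0.992), Penk (0.963), Ppp1r1b (0.990), Vwf (0.932), the summed neuromodulators and neuropeptides list (0.975) and the summed striatum markers list (0.996). Highest in C57 library 1 were H2-Ab1 (0.970), Igkc (0.895), Rps27l (0.844) and Upk3a (0.839). Lowest in C57 library 1 were Atp2b4 (0.903), Atp6ap2 (0.892), Atp6v0a4 (0.869), Cers2 (0.837), Cldn2 (0.844), Enpp2 (0.918), Esrp1 (0.954), Kl (0.884), Klhl3 (0.908), Lnpep (0.857), Ncam1 (0.908), Pklr (0.857), Ppargc1a (0.867), Ptbp3 (0.862), Slc2a2 (0.880), Sptlc1 (0.904), Trpv5 (0.917), Umod (0.969), Ywhaz (0.853), the summed loop of Henle list (0.905), the summed nephron transcription factors list (0.850) and the summed splicing and RNA-binding regulators list (0.857). Highest in C57 library 4 were Cyp4a12a (0.873) and Ttr (0.869).

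Between the adult contrast and the contrast of aged Hap-I mice, the test of the difference itself called 3861 genes. Its log2 value was 2.49 for S100a9, 2.35 for Fos, 1.97 for Cox6a2, 1.77 for Lamtor5, 1.65 for Ms4a6c and 1.64 for Junb, and on the other side -6.10 for Akr1c18, -5.34 for Cfd, -4.45 for Car3, -4.10 for Mup18, -3.996 for Kap and -3.92 for Scd1.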

How the results depend on the processing

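The number of genes called between Hap-I adults and C57 adults was 10942 and ran from 8755, under a filter of 5 TPM, to 12620 without a filter. Leaving out each library in turn gave 10438 to 11036 calls, and 3799 to 3926 at 4-fold or more. The median difference over all genes tested moved from 0.43 to 0.0053 after median-of-ratios rescaling, to -0.040 after quantile normalization, to 0.073 without a low filter and to 0.27 when Hap-I libraries 2 and 4 and C57 library 1 were left out together, a choice made after the data had been seen. With each library left out in turn it was 0.35 to 0.47.

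The number of genes whose difference differed between the contrasts went from 3861 to 1198 after median-of-ratios rescaling and 1009 after quantile normalization, and leaving out 1 library gave 2035 to 7014. The cause was not tested. The share of TPM in the 50 most abundant genes differed by -5.63 percentage points (exact permutation p = 0.143), and by -8.15 to -3.95 with 1 library left out, where the value without Hap-I library 3 reached an exact permutation p of 0.0286.

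Of 249 named genes tested, 213 kept their direction and their side of the threshold under every alternative run. Cycs, Enpp2, Ppargc1a and Ttr, a further 4, were called under none and turned sign in at least 1. The call or a called sign changed for the other 32, among them Slc7a13, Acsm3, Slc7a8, Ndufa9, Tubb6, S100a9, Cyp4a12a and Dnm2, whose calls were lost with all 24 libraries in the fit. A sign turned, with a call on at least 1 side, for Adora2a (-0.66 to 0.83 with 1 library left out, the lowest without Hap-I library 4, and -0.49 without the 3 libraries), Ppp1r1b (-0.37 to 0.68, lowest without library 4, and -0.45) and Kcnj13 (-0.71 to 1.05, lowest without Hap-I library 2). It also turned for Cox8a (0.28) and Pou3f3 (-0.47) after quantile normalization and Rpl3 (-0.032) after median-of-ratios rescaling. No paired analysis was possible because the compared groups share no replicate number in the titles. TPM keeps no depth, so the precision of low values is unknown. Genes under 1 TPM in both groups were not tested, and the tissue, the transgene, sex and any unlabelled batch cannot be told apart in this comparison.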
